A study of Homo sapiens with 6 samples.

Results

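The AP-1 family genes described here are *JUN*, *JUNB*, *JUND*, *FOS*, *FOSB*, *FOSL1*, *FOSL2*, *ATF3*, *BATF3* and *JDP2*. They were taken as a named list, matched by gene symbol to RNA-seq read counts, and all 10 were among the 23304 genes tested. The counts come from HEK293T, a line derived from human embryonic kidney cells that carries the SV40 large T antigen. 3 libraries were made from cells with a control short-hairpin RNA (sh-control) and 3 from cells labelled as carrying a hairpin against *RREB1* (sh-*RREB1*), a zinc finger gene whose protein binds RAS-responsive elements. Per the study's methods, both hairpins were delivered by pLKO.1 lentivirus, and infected cells were drug-selected into stable lines grown in DMEM with serum. No growth factor treatment is given for these libraries, each group may stand for a single selected line, and the sources do not say that replicates were separate cultures, so p-values measure only the spread between these libraries.

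AP-1 is a group of transcription factors that bind DNA as dimers through a basic region and a leucine zipper (bZIP). JUN proteins pair with each other, with FOS proteins or with ATF proteins, whereas FOS proteins need a JUN partner, and a JUN-FOS dimer prefers the site TGANTCA while a JUN-ATF dimer prefers the longer TGANNTCA. In most cells *JUN* and *FOS* are immediate early genes, switched on quickly by growth factors and, through JNK, by stress, and *JUN* is known for activating its own promoter through such a site.

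*RREB1* itself checks the labels. Levels are given as CPM, reads of a gene for every 1000000 counted in its library, after scaling by edgeR's TMM method. *RREB1* was at 27.1, 25.2 and 26.6 CPM with sh-control and at 23.7, 24.6 and 23.2 CPM in the sh-*RREB1* libraries. The groups did not overlap, but the log2 fold change was -0.14 (SE 0.13, adjusted p = 0.486 by edgeR), so the condition is named below by its label only. The sh-control libraries held 23362197 to 33044061 reads on genes, and the sh-*RREB1* libraries 12257054 to 26145878. Sh-*RREB1* replicate 3 had the fewest, and 52.1% of its aligned reads matched more than 1 place, compared to 3.66% to 7.63% in the other libraries. The list of 8 markers of these cells summed to 482 to 541 CPM with sh-control and 783 to 890 CPM with sh-*RREB1*, with *VIM* high in all libraries and the kidney factor *PAX2* at a mean of 0.253 CPM. Fibroblast markers summed to at most 1.5 CPM with sh-control and to 2.46, 8.56 and 1.19 CPM with sh-*RREB1*. Of the 4 fibroblast genes, *COL1A2* had 0 reads in all libraries but sh-*RREB1* replicates 2 and 3, where it had 103 and 1. Blood markers summed to at most 0.459 CPM, with *PTPRC* and *HBB* too low to be tested. Endothelial markers summed to 3.46 to 3.79 CPM with sh-control and 1.59 to 1.91 CPM with sh-*RREB1*, with *CDH5* too low to be tested and *KDR* called lower at a log2 fold change of -1.05 (adjusted p = 0.00854 by edgeR). That call was kept in 1 of 6 fits with a library left out, and *KDR* was at -0.86 and not called with the trend on GC content described below removed. Their part in the results below was not tested.

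The promoters of the members that hold the longer AP-1 site are shown first, since JUN-ATF dimers are known to bind it. RefSeq promoter windows on GRCh38.p14 were found for 8 of the 10 members, with 11 windows in all, and the 250 bases before each start were searched on both strands. Capitals mark TGANNTCA. The *JUN* window is chr1:58784048-58784297 on the minus strand, the first *ATF3* window is chr1:212565157-212565406 on the plus strand, and the *JUND* window is chr19:18281623-18281872 on the minus strand.
JUN: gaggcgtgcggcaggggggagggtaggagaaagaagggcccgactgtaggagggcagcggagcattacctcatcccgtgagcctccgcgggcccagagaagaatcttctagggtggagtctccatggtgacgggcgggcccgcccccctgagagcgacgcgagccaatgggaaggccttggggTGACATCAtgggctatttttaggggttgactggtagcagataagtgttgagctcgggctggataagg
ATF3: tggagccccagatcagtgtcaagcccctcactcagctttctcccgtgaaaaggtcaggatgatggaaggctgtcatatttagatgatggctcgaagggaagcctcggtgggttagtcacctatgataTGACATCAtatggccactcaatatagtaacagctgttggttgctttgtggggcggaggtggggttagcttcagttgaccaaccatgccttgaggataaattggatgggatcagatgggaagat
JUND: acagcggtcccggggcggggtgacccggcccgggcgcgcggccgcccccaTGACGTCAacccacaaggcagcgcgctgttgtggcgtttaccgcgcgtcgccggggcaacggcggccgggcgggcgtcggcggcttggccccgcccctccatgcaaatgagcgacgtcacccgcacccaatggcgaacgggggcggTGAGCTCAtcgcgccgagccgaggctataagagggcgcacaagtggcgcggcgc
In *JUN* the site reads TGACATCA and lies 67 to 60 bases before the start. The same 8 letters stood in *ATF3*, 123 to 116 bases before the start. *JUND* held TGACGTCA at 200 to 193 bases and TGAGCTCA at 54 to 47 bases before the start. No window of *JUNB*, *FOS*, *FOSB*, *FOSL2* or *JDP2* held TGANNTCA, which was present in 10.1% of all 35116 windows. TGANTCA, which cannot start at the same base as the longer motif, was in none of the members' windows and in 6.57% of all windows. The CArG box bound by serum response factor was also in none of them, against 1.16% of all windows. Sites farther than 250 bases before a start were outside the search, so an absence here covers this stretch only. GGGCGG, the GC box, was present in 42.6% of all windows and occurred 6 times in a window of *JDP2*, 5 times in that of *JUND*, 2 times in those of *JUN* and *FOSB*, 1 time in those of *FOS*, *FOSL2*, the first of *ATF3* and the other windows of *JDP2*, and 0 times in those of *JUNB* and the second of *ATF3*. TATAAA was in 10.7% of all windows, and was found in those of *JUNB*, *FOS*, *FOSB* and the second of *ATF3*. A match is a description of letters, and binding was not measured here.

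*JUN*, *JUND*, *ATF3*, *BATF3* and *FOSL2* were higher in the sh-*RREB1* libraries, *JUN* by 4.93-fold, though *JUND* was not called once a trend with GC content and length was removed, while *FOS*, *FOSB* and *JDP2* overlapped between the groups. The list was proposed with this contrast known, so the members' values are a description and carry no test. In bulk RNA, a difference in the RNA of each cell cannot be told apart from a difference in how many cells express the gene.

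*JUN* (ENSG00000177606, chr1:58776845-58784048 of GRCh38, minus strand, a single exon) encodes the founding member of the family. It was covered by 556, 779 and 990 reads with sh-control and 3067, 3925 and 1762 reads with sh-*RREB1*, or 24.2, 28.7 and 30.9 CPM against 124, 150 and 140 CPM. Every sh-*RREB1* library was above every sh-control library. The means were 27.9 ± 3.40 and 138 ± 13.3 CPM (SD, n = 3), a log2 fold change of 2.30 (SE 0.14, 95% confidence interval 1.99 to 2.61). Leaving out each library in turn gave 2.18 to 2.38.

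*JUND* (ENSG00000130522, chr19:18279694-18281622, minus strand, a single exon), the JUN protein that most resting cells make steadily, had 45, 46 and 47 reads with sh-control and 248, 157 and 104 with sh-*RREB1*. Its levels were 1.96, 1.69 and 1.46 CPM with sh-control and 9.99, 6.0 and 8.25 CPM with sh-*RREB1*. The groups were far apart, and the sh-*RREB1* libraries differed more among themselves than those of sh-control. The log2 fold change was 2.25 (SE 0.25, 95% confidence interval 1.69 to 2.80), but it came to 0.41 (SE 0.37) and was not called once a trend of the libraries with GC content and length, described below, was removed. *JUNB* (ENSG00000171223, chr19:12791486-12793315, plus strand, a single exon), whose protein can restrain JUN, rested on only 7, 14 and 23 reads with sh-control and 36, 35 and 12 with sh-*RREB1*. That is 0.305, 0.515 and 0.717 CPM against 1.45, 1.34 and 0.952 CPM, with a log2 fold change of 1.27 (SE 0.35, 95% confidence interval 0.48 to 2.06), or 0.11 (SE 0.30) with that trend removed. The groups did not overlap, but counting error alone is wide at this depth: the 95% exact Poisson interval ran from 0.122 to 0.628 CPM in sh-control replicate 1 and from 0.492 to 1.66 CPM in sh-*RREB1* replicate 3.

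**Figure D1:**
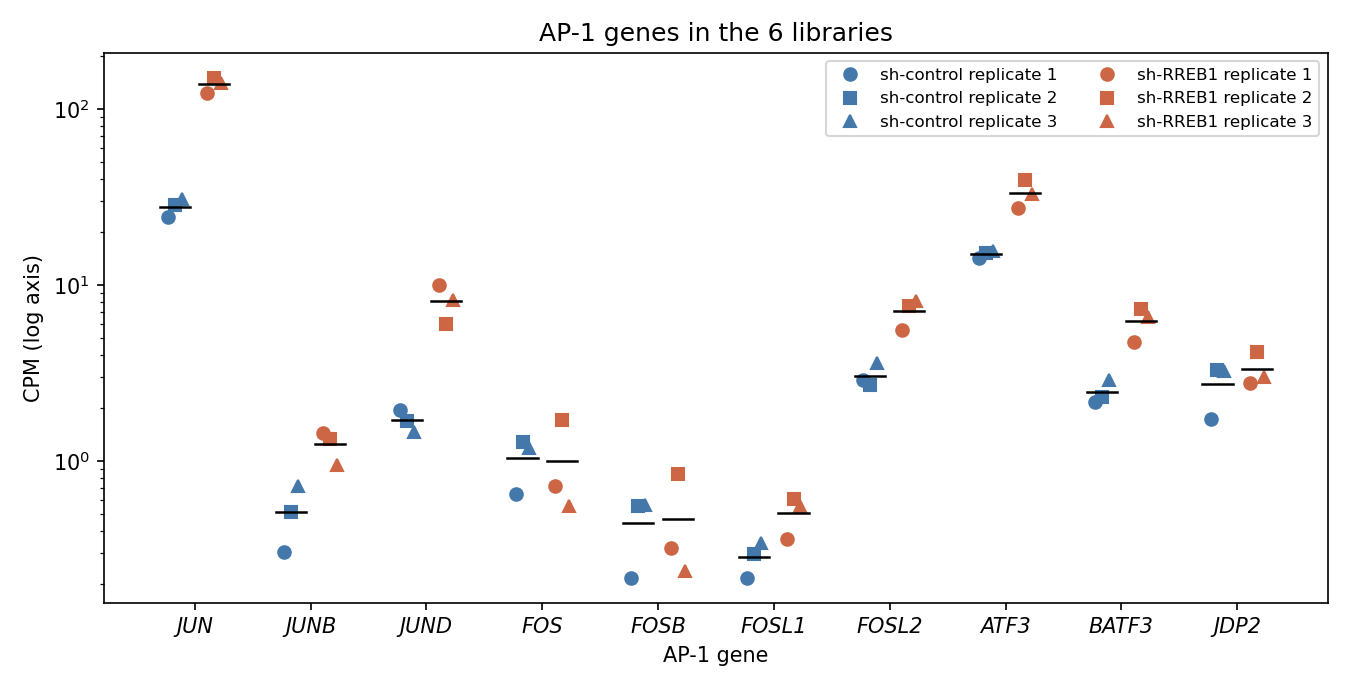
Level of each AP-1 gene in each library on a log axis of CPM, with blue symbols for sh-control, orange symbols for sh-*RREB1*, circles, squares and triangles for replicates 1, 2 and 3, and a bar at each group mean. *JUN* is the gene with the widest gap, at 24.2 to 30.9 CPM with sh-control and 124 to 150 CPM with sh-*RREB1*, and *FOS*, *FOSB* and *JDP2* overlap.

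The FOS proteins bind AP-1 sites only with a partner, and few reads covered their genes apart from *FOSL2*. *FOS* (ENSG00000170345, chr14:75278826-75282230, plus strand) had 15, 35 and 38 reads with sh-control and 18, 45 and 7 with sh-*RREB1*. Its levels were 0.653, 1.29 and 1.18 CPM against 0.725, 1.72 and 0.555 CPM, so the highest and the lowest library were both labelled sh-*RREB1*. The means were 1.04 ± 0.341 and 1.0 ± 0.629 CPM (SD, n = 3). The log2 fold change was -0.00031 (SE 0.70, 95% confidence interval -1.58 to 1.58). This SE was computed from the log2 fold change and its test statistic, which is unstable for a value so near 0. The edgeR fit with DESeq2 size factors gave -0.02 (SE 0.43), so the width of the interval is not reliable. Changes in either direction may still be missed at this depth. *FOSB* (ENSG00000125740, chr19:45467995-45475179, plus strand), the nearest relative of *FOS*, likewise had its highest level in sh-*RREB1* replicate 2, at 0.218, 0.552 and 0.561 CPM with sh-control and 0.322, 0.841 and 0.238 CPM with sh-*RREB1*. These stand on 3 to 22 reads a library, and the log2 fold change was 0.14 (SE 0.54, 95% confidence interval -1.08 to 1.36).

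*FOSL1* (ENSG00000175592, chr11:65892049-65900573, minus strand), which encodes FRA1, a FOS protein that accumulates under lasting growth factor signals, had 5, 8 and 11 reads with sh-control and 9, 16 and 7 with sh-*RREB1*. The levels were 0.218, 0.294 and 0.343 CPM against 0.363, 0.612 and 0.555 CPM. The groups stood just apart, by 0.343 against 0.363 CPM, and the 95% confidence interval of the log2 fold change of 0.79 ran from -0.11 to 1.70. *FOSL2* (ENSG00000075426, chr2:28392448-28417317, plus strand), which encodes FRA2, was the best covered FOS gene at 66, 73 and 116 reads with sh-control and 138, 198 and 102 with sh-*RREB1*. It was at 2.87, 2.69 and 3.62 CPM against 5.56, 7.57 and 8.09 CPM. All sh-*RREB1* libraries were above all sh-control libraries, with a log2 fold change of 1.2 (SE 0.22, 95% confidence interval 0.70 to 1.69).

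*ATF3* and *BATF3* lie on the same arm of chromosome 1, and both were higher in all sh-*RREB1* libraries. *ATF3* (ENSG00000162772, chr1:212565334-212620777, plus strand) is a stress-induced factor that pairs with JUN proteins. It had 328, 412 and 498 reads with sh-control and 683, 1033 and 417 with sh-*RREB1*, or 14.3, 15.2 and 15.5 CPM against 27.5, 39.5 and 33.1 CPM. The sh-control libraries were nearly level and all 3 sh-*RREB1* libraries stood above them, with a log2 fold change of 1.15 (SE 0.17, 95% confidence interval 0.78 to 1.53). *BATF3* (ENSG00000123685, chr1:212686417-212699840, minus strand), which is best known for its part in dendritic cells and lacks an activation domain, had 50, 63 and 92 reads with sh-control and 118, 191 and 83 with sh-*RREB1*. Its levels were 2.18, 2.32 and 2.87 CPM against 4.76, 7.30 and 6.58 CPM. As in *ATF3*, sh-*RREB1* replicate 2 was the highest, and the log2 fold change was 1.33 (SE 0.23, 95% confidence interval 0.82 to 1.84). *JDP2* (ENSG00000140044, chr14:75427716-75474111, plus strand), which encodes a repressor that pairs with JUN, lies on the same chromosome as *FOS* and overlapped between the groups. It was at 1.74, 3.28 and 3.24 CPM with sh-control and 2.78, 4.17 and 3.01 CPM with sh-*RREB1*, with a log2 fold change of 0.27 (SE 0.29, 95% confidence interval -0.38 to 0.92).

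Genes were called where edgeR gave an adjusted p under 0.01 and the level differed by more than 1 on the log2 scale. On this rule 5 of the 10 members were called higher (*JUN*, *JUND*, *FOSL2*, *ATF3* and *BATF3*), beside 2.71% of all genes tested. None was called lower, beside 0.699% of all genes. At an unadjusted edgeR p under 0.05, 6 members were higher and 0 lower, and the share of all genes at that threshold is not given here. DESeq2 called the same numbers of members, 5 higher and 0 lower. By DESeq2 5.94% of all genes were called higher and 263 of 23304 lower. 7 of the 10 had all sh-*RREB1* libraries above all sh-control libraries, the 5 called genes with *JUNB* and *FOSL1*, beside 21.1% of all genes. Since the list was chosen on this contrast, nothing is read from these shares. The median log2 fold change of the members was 1.18, and that of all genes 0.01. Just past the threshold stood *ATF3* at 1.15 and *FOSL2* at 1.2. *JUNB*, at 1.27, was past the fold but not the adjusted p. The calls of *FOSL2*, *ATF3* and *BATF3* were each kept in 1 of the 6 fits that left out a library, those of *JUND* in 3 and those of *JUN* in all 6. Without sh-*RREB1* replicate 3, the library with the most reads matching several places, the log2 fold changes were 2.29 for *JUN*, 2.23 for *JUND*, 1.29 for *BATF3*, 1.16 for *ATF3* and 1.10 for *FOSL2*, and *JUN* alone was called.

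**Figure D2:**
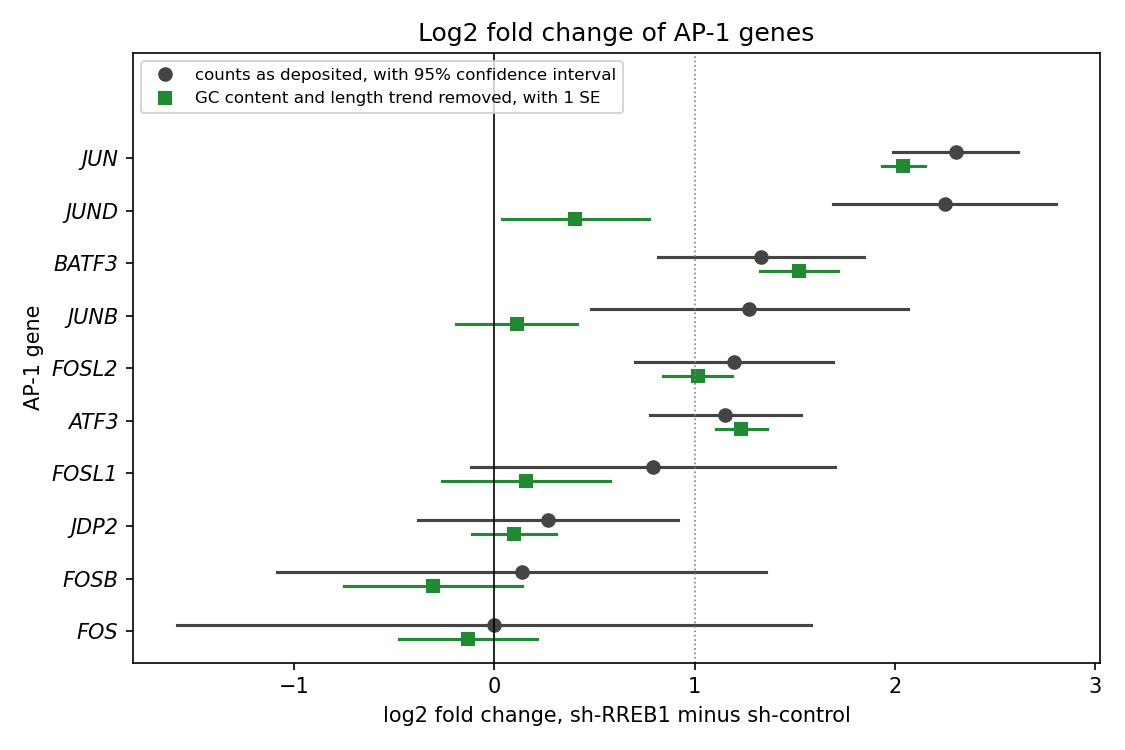
Log2 fold change of each AP-1 gene, sh-*RREB1* against sh-control, from edgeR on the counts as deposited (circles, with 95% confidence intervals) and with the trend with GC content and length removed (squares, with 1 SE); the dotted line marks a log2 fold change of 1. *JUND* is at 2.25 before and 0.41 after the trend was removed, while *JUN* is at 2.30 and 2.04.

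The fold changes of all genes moved with their GC content. Among genes with a mean of at least 1 CPM, the median log2 fold change was -0.23 in the decile with the lowest GC content and 1.13 in the highest. *JUND*, at 69.9% GC, and *JUNB*, at 64.9%, fall in that highest decile, which spans 59.8% to 73.8%. *FOSB* and *FOSL1* fall in the next, with a median of 0.63. *JUN*, *FOS*, *FOSL2* and *JDP2* share the third highest, with a median of 0.32, *ATF3* lies in a decile with a median of 0.11 and *BATF3*, at 48.0% GC, in one with a median of -0.07. In the highest decile, sh-control replicate 1 stood lowest, at a median of -1.33 on the log2 scale relative to the mean of all libraries, and sh-*RREB1* replicate 2 highest, at 0.86. Among the controls *JUNB* was lowest in replicate 1 and highest in replicate 3, in the order of the decile, and *JUND* was highest in replicate 1.

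When each library's trend with GC content and length was fitted and removed, 4 of the 10 members were called higher (*JUN*, *FOSL2*, *ATF3* and *BATF3*) beside 2.91% of all genes, and none lower beside 0.893%. *JUN* kept a log2 fold change of 2.04 (SE 0.11) and was called in all 6 fits with a library left out. *ATF3* was at 1.23 (SE 0.13) and *BATF3* at 1.52 (SE 0.19), also called in 6 of 6, and *FOSL2* was at 1.02 (SE 0.17), called in 3 of 6. *JUND* came to 0.41 (SE 0.37) and *JUNB* to 0.11 (SE 0.30), no longer past the fold. *FOSL1* was then at 0.16, *JDP2* at 0.10, *FOS* at -0.13 and *FOSB* at -0.31. The median of the members was then 0.28, beside 0.10 for all genes, so that changes on this scale are to be read against a shift of 0.10. Since the groups differ in this trend, a true difference that follows GC content would be removed with it. *JUN*, *JUNB* and *JUND* are also intronless, while the other members have 3 or 4 exons. The 409 protein-coding genes tested that have 1 exon had a median log2 fold change of 0.36, and 28 of them (6.85%) were called higher.

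**Figure D3:**
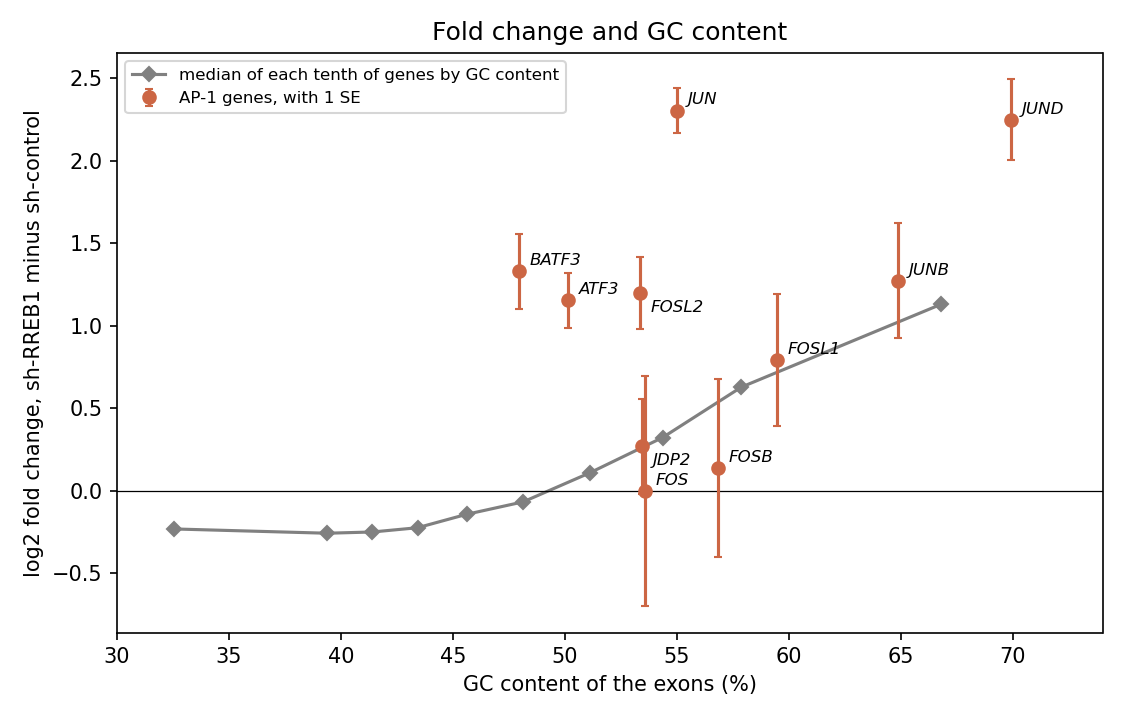
Log2 fold change of the AP-1 genes against the GC content of their exons in percent, with bars of 1 SE, and the median of all genes in each decile of GC content, drawn at the middle of its range (grey line). *JUN*, *ATF3*, *BATF3* and *FOSL2* lie above the line, *JUNB* and *FOSL1* near it, *FOS*, *FOSB* and *JDP2* below the median of their decile, and *JUND*, at 2.25, beyond the end of the line, whose last point is at 1.13.

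To compare levels between genes, CPM was divided by exonic length in kilobases (RPKM). On this scale *JUN* was the most abundant AP-1 RNA in every library, at 6.68, 7.91 and 8.51 RPKM with sh-control and 34.1, 41.4 and 38.6 RPKM with sh-*RREB1*. *ATF3* came next in both groups, at 3.75 ± 0.161 and 8.34 ± 1.5 RPKM (SD, n = 3). Below them the order differed between the groups. In sh-control *BATF3*, at 0.955 ± 0.142 RPKM, overlapped with *JUND*, at 0.884 ± 0.128 RPKM. In sh-*RREB1* *JUND* stood apart from *BATF3*, at 4.19 ± 1.04 against 2.42 ± 0.511 RPKM. RPKM, here and in the sums, shares and ratios below, keeps the trend with GC content. With that trend removed the log2 fold change was 0.41 for *JUND* and 1.52 for *BATF3*, so this change of order may not hold without the trend. *JDP2*, *FOSL2*, *FOS*, *JUNB* and *FOSL1* followed in sh-control, from 0.440 ± 0.140 down to 0.151 ± 0.0335 RPKM, with each overlapping the next in that order. In sh-*RREB1* the same 5 ran from *FOSL2* at 0.988 ± 0.186 to *FOSL1* at 0.270 ± 0.0692 RPKM, again each overlapping its neighbour. *FOSB* was the lowest in both, at 0.0799 ± 0.0353 and 0.0841 ± 0.0588 RPKM. Among all genes tested, the mean CPM of *JUN* lay at percentile 86.5, that of *ATF3* at 69.7 and that of *FOS* at 38.1.

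The summed level of the 10 genes was 13.3, 15.3 and 16.3 RPKM with sh-control and 50.5, 60.7 and 56.3 RPKM with sh-*RREB1*. *JUN* made up 51.3% ± 1.02 (SD, n = 3) of this sum with sh-control and 68.1% ± 0.494 with sh-*RREB1*. The 3 JUN genes together summed to 8.86 ± 0.922 and 42.9 ± 2.62 RPKM in the respective groups, and the 4 FOS genes to 0.985 ± 0.204 and 1.66 ± 0.409 RPKM. The share of the FOS genes was 6.52% ± 0.720 with sh-control and 2.94% ± 0.466 with sh-*RREB1*, and that of *ATF3* was 25.1% ± 1.56 and 14.9% ± 1.33. Per length, *JUN* stood at 32.6, 19.6 and 22.9 times *FOS* with sh-control and at 150, 76.7 and 221 times with sh-*RREB1*. The ratio of *JUN* to *ATF3* was 1.87, 2.09 and 2.19 with sh-control and 4.95, 4.19 and 4.66 with sh-*RREB1*. That of *JUN* to *JUND* overlapped between the groups, at 6.58 to 11.2 and 6.58 to 13.3. With the trend removed the log2 fold changes were 2.04 for *JUN* and 0.41 for *JUND*, so this overlap may not hold without the trend. Protein levels and dimers were not measured here.

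**Figure D4:**
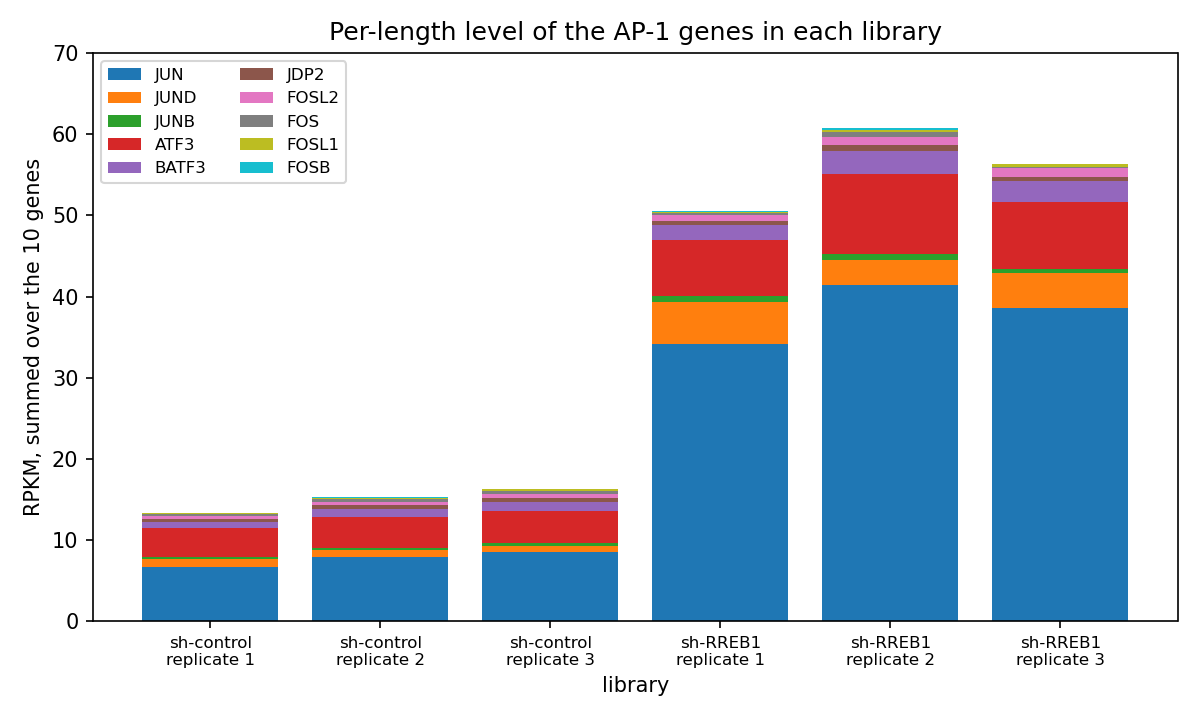
Stacked bars of RPKM for the 10 AP-1 genes in each library, from 0. The sums run from 13.3 to 16.3 RPKM with sh-control and from 50.5 to 60.7 RPKM with sh-*RREB1*, and *JUN* is the tallest part of every bar.

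Genes that share bases with the members were checked, since reads could be split between them. The libraries keep strand, and reads from the opposite strand were left out. *LINC01135* starts 336 bases from *JUN* on the other strand and had 5, 6 and 10 reads with sh-control and 4, 7 and 1 with sh-*RREB1* (log2 fold change -0.45, adjusted p = 0.602 by edgeR), far fewer than *JUN* in every library. *HOOK2*, a microtubule linker opposite *JUNB*, had a log2 fold change of 0.18 (adjusted p = 0.624 by edgeR). *ERCC1*, a DNA repair gene opposite *FOSB*, was at 0.59 (adjusted p = 0.181 by edgeR). *JDP2-AS1*, opposite *JDP2*, was at -0.41 (adjusted p = 0.286 by edgeR). *FOSL2-AS1* had 0 reads, and ENSG00000270640, on the strand of *FOSL2*, had at most 5 reads in a library.

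Other bZIP genes, the possible partners of AP-1 proteins, were mostly not called. Of 22 listed, 21 were tested (all but *BATF*), 3 were called higher and 0 lower, 7 were higher and 2 lower at an unadjusted edgeR p under 0.05, and DESeq2 called 4 higher and 0 lower. The median log2 fold change was 0.17. The edgeR calls, here and in the lists below, are to be read against the 2.71% of all genes called higher and 0.699% called lower. DESeq2 calls of higher genes are to be read against 5.94%. The share of all genes at an unadjusted edgeR p under 0.05 is not given here, so nothing is read from those counts. *MAFK*, a small MAF protein without an activation domain, rose from 0.678 ± 0.145 to 4.19 ± 0.358 CPM (SD, n = 3), a log2 fold change of 2.61 (SE 0.23, adjusted p = 0.00141 by edgeR) that was 1.44 with the trend removed. *MAF*, a large MAF activator, was at 10.1, 9.31 and 8.79 CPM with sh-control and at 39.3, 18.5 and 32.2 CPM with sh-*RREB1*, a log2 fold change of 1.67 (SE 0.26, adjusted p = 0.00544 by edgeR). *CREB5*, which can pair with JUN, rose from 28.1 ± 4.33 to 57.7 ± 4.43 CPM, a log2 fold change of 1.04 (SE 0.15, adjusted p = 0.0043 by edgeR). All 3 were also called with the trend removed, and each was then called in 6 of 6 fits with a library left out. Without removing the trend, *MAFK* was called in 3 of 6 fits with a library left out, *MAF* in 2 and *CREB5* in 1. The most abundant genes not called were *ATF4*, the factor of the integrated stress response, with a log2 fold change of -0.38 (adjusted p = 0.164 by edgeR), or -0.86 (SE 0.12, adjusted p = 0.000156) with the trend removed, the repressor *BACH1* with -0.18 (adjusted p = 0.252 by edgeR), and *NFE2L1* with 0.35 (adjusted p = 0.18 by edgeR). *MAFF*, named after its values were seen, was called lower once the trend was removed, at -1.81 (adjusted p = 0.00218 by edgeR), and was at -1.01 (adjusted p = 0.119 by edgeR) before.

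Immediate early genes other than the members answer the same signals as *JUN* and *FOS*. Of 37 listed, 36 were tested (all but *EGR4*), 2 were called higher and 0 lower, 8 were higher and 4 lower at an unadjusted edgeR p under 0.05, and DESeq2 also called 2 and 0. Their median log2 fold change was 0.33. *RHOB*, a small GTPase induced by growth factors and DNA damage, had 17.9, 20.2 and 21.7 CPM with sh-control and 162, 118 and 152 CPM with sh-*RREB1*. Its log2 fold change of 2.85 (SE 0.15, adjusted p = 0.000139 by edgeR) was above that of any member, and it was 2.4 with the trend removed. *MYC*, a growth-promoting transcription factor, was at 18.1, 16.4 and 18.2 CPM against 35.5, 40.4 and 34.2 CPM, a log2 fold change of 1.06 (SE 0.14, adjusted p = 0.00349 by edgeR). With a library left out *RHOB* was called in 6 of 6 fits and *MYC* in 1. With the trend removed *MYC* was at 1.02 and still called, in 4 of 6 fits with a library left out. *EGR1*, named after its values were seen because it is a standard readout of growth factor signals, stayed at or below 0.564 CPM in all 6 libraries. It rested on 4 to 14 reads a library, with a log2 fold change of 0.85 (adjusted p = 0.168 by edgeR), or 0.59 with the trend removed. Nothing about growth factor signals is read from *EGR1* at this depth. The most abundant genes not called were *MCL1*, an anti-apoptotic gene, at a log2 fold change of -0.18 (adjusted p = 0.369 by edgeR), *IER5* at -0.29 (adjusted p = 0.0982 by edgeR) and *TIPARP* at -0.48 (adjusted p = 0.0299 by edgeR).

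Of 32 genes known as AP-1 targets, 7 had too few reads to be tested, the matrix proteases *MMP1*, *MMP3*, *MMP9* and *MMP10* with *CCL2*, *EREG* and *IVL*. Of the 25 tested, 1 was called higher and 0 lower, 9 were higher and 0 lower at an unadjusted edgeR p under 0.05, and DESeq2 called 4 higher and 0 lower. The gene called was the metallothionein *MT2A*, which binds zinc and other metals, at 0.881 ± 0.402 CPM with sh-control and 4.8 ± 0.382 CPM with sh-*RREB1* (SD, n = 3). Its log2 fold change was 2.41 (SE 0.31, adjusted p = 0.00349 by edgeR). Reads that matched it and near-identical metallothionein genes equally were not counted. It was called in 2 of the 6 fits with a library left out. With the trend removed it was at 2.27 and called in 6 of 6 such fits. *VIM*, an intermediate filament gene, rose from 340 ± 17.3 to 572 ± 43.0 CPM (adjusted p = 0.00391 by edgeR) but at a log2 fold change of 0.75 missed the minimum fold. *EZR*, at 0.10 (adjusted p = 0.73 by edgeR), and *GCLM*, at -0.10 (adjusted p = 0.815 by edgeR), were the other abundant genes. The genes that DESeq2 added, named after their values were seen, were *CD44*, *FLNC* and *HMOX1*, with adjusted p of 0.022, 0.0241 and 0.0198 by edgeR. *CD44* was called by edgeR with the trend removed, at 2.38 (adjusted p = 0.00307 by edgeR).

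Of 26 upstream regulators, which are kinases, transcription factors known to act on the promoters of AP-1 genes (such as *SRF* and *ELK1*), and parts of ubiquitin ligases, 1 was called higher and 0 lower, 4 were higher and 10 lower at an unadjusted edgeR p under 0.05, and DESeq2 also called 1 and 0. *MAP2K7*, a kinase that activates JNK, was at 2.48, 3.53 and 4.30 CPM with sh-control and 12.3, 11.7 and 8.72 CPM with sh-*RREB1*, a log2 fold change of 1.66 (SE 0.24, adjusted p = 0.00452 by edgeR). It was called in 2 of the 6 fits with a library left out, and with the trend removed it was at 0.68, below the minimum fold. No regulator was then called, for a count of 0 in each direction, with 4 higher and 3 lower at an unadjusted edgeR p under 0.05. *DDB1* had a log2 fold change of 0.01 (adjusted p = 0.987 by edgeR) and *RPS6KA3* of -0.19 (adjusted p = 0.354 by edgeR). Among 10 heat shock genes, 1 was called higher and 0 lower, 4 were higher and 1 lower at an unadjusted edgeR p under 0.05, and DESeq2 called 2 and 0. The gene called was *HSPA1B*, with a log2 fold change of 1.66 (adjusted p = 0.00357 by edgeR), called in 2 of the 6 fits with a library left out. With the trend removed it was at 1.06 and still called, in 1 of 6 fits with a library left out. It is nearly identical to *HSPA1A*, and reads that matched both equally were not counted. *HSPB1*, named after its values were seen, was the other gene called by DESeq2, at a log2 fold change of 2.51 (adjusted p = 0.0153 by edgeR). With the trend removed *HSPB1* was at 1.51 (adjusted p = 0.00107 by edgeR) and called, in 6 of 6 fits with a library left out.

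**Figure D5:**
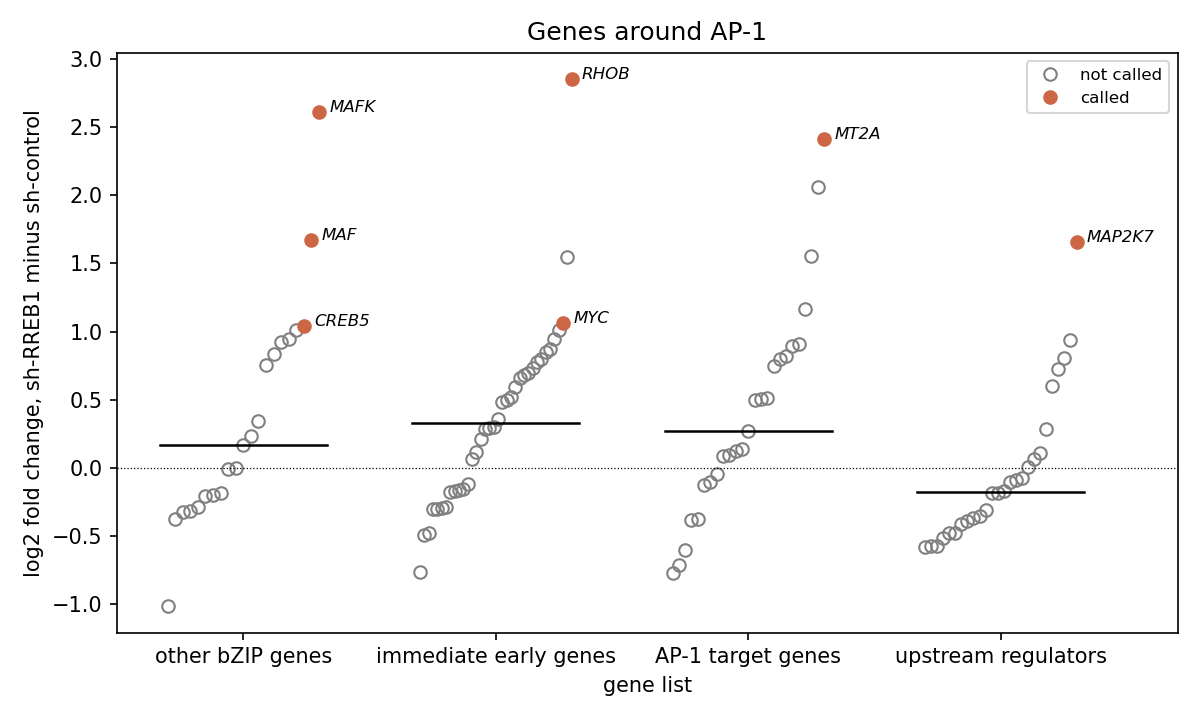
Log2 fold change of each gene of the 4 lists around AP-1, sorted within a list, with filled symbols for genes called, open symbols for the others and a bar at each median. The medians lie between -0.18 for the upstream regulators and 0.33 for the immediate early genes, and *RHOB* is the highest point at 2.85.

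The genes whose pattern was most like *JUN* were found by the root mean square (RMS) difference of log2 CPM over the 6 libraries, each gene set to its own sh-control mean, among 10887 genes with a mean of at least 5 CPM. *SPON1*, which encodes the secreted matrix protein spondin 1, was the nearest at an RMS of 0.0886, with 3.7, 3.61 and 4.27 CPM with sh-control and 18.1, 21.6 and 19.4 CPM with sh-*RREB1*. *DYNLRB1*, a dynein light chain, followed at 0.110, then *TNKS1BP1* at 0.178, *TNFRSF12A*, the receptor of the cytokine TWEAK, at 0.181 and *TBKBP1* at 0.200. Their log2 fold changes lay between 2.10 and 2.35, near that of *JUN* because of how they were chosen. With the trend removed, *SPON1* was at 2.49 and *DYNLRB1* at 2.14, near *JUN* at 2.04, while *TNKS1BP1* was at 1.17, *TNFRSF12A* at 1.05 and *TBKBP1* at 0.97. Of the 5 genes, only the last 3 lie in the decile with the highest GC content.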

How the data were processed

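Reads had been aligned by the authors with STAR to hg38, and the deposited read counts per gene, raw and not normalized, were used for the 6 libraries. The kit keeps strand, so counts on the strand of the gene were taken. A merged table holds the same counts for 24635 identifiers. Reads on no gene (8853232 to 13201426 a library) and ambiguous reads (948964 to 2608366) were left out. So were reads that matched more than 1 place (1407340 to 24112715). Of identifiers that share a symbol, the one with most reads was kept, and genes with at least 10 reads in all were tested.

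Groups were compared in edgeR 4.0.16 (quasi-likelihood, TMM, condition only) in R 4.3.3 with Benjamini-Hochberg adjustment over all 23304 genes, and DESeq2 1.42.0 was an alternative. In the second fit, trends on GC content and exonic length (natural splines, 5 degrees of freedom) were an offset. On simulated counts with 200 changed genes, edgeR recovered 100% and called 1 unchanged gene of the 23304. With an added GC trend it recovered 97.5% and called 79 unchanged genes, and with the trend removed 100% and 0. The changed genes were drawn from well covered genes at a log2 fold change of 2 in either direction. The added trend was linear with GC content, and the simulated spread between replicates was the same for all genes. Recovery of smaller changes, or of changes in genes with few reads, was not tested. Coordinates and GC content came from Gencode 44 on GRCh38. The closest libraries, sh-control replicates 2 and 3, differed with a chi-square of 4.74 for each degree of freedom, so all were counted as separate. Depth is given in the text, and intervals on single libraries cover counting error only.

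The members and gene lists were chosen with earlier results of these data known. Named were all members, *RREB1*, every called gene of each list with up to 3 of the most abundant not called, genes within 5 kb of *JUN* or overlapping a member, and the 5 genes most like *JUN*, apart from 1 upstream regulator that is not reported here. Alternatives were DESeq2, its size factors, the merged table, counts of both strands, other filters, no TMM, a replicate block, the trend removed, and each library left out. Leaving out libraries with the trend removed was added after the data had been seen.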

Additional observations from a re-analysis of the deposited data

Results flagged for a closer look

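Reads on the strand opposite to 3 members, which the comparisons did not use, were more numerous in the sh-*RREB1* libraries than with sh-control. *JUN* had 20 such reads in the sh-*RREB1* libraries and 8 with sh-control, or 0.174, 0.0368 and 0.0935 CPM with sh-control and 0.403, 0.191 and 0.397 CPM with sh-*RREB1*. They made up at most 0.714% of the reads on the gene in any library. *JUNB* had 7 against 2 such reads. *FOSL1* had 28 against 27, at 0.312 to 0.348 CPM with sh-control and 0.382 to 0.484 CPM with sh-*RREB1*, and from 38.5% to 61.5% of the reads over this gene were on the opposite strand. Other members went the other way, *FOSB* with 6 against 14 such reads and *JUND* with 2 against 4. Over all genes, sh-*RREB1* replicate 3 had 3923750 opposite-strand reads, beside 1207964 to 1718516 in the other libraries, although it had the fewest sense reads. These differences were not tested.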

How the results depend on the processing

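Across 219 log2 fold changes of the members under the alternatives, 181 moved by less than the replicate spread, 37 moved more and 1 reversed: *JUND*, with the trend removed and sh-control replicate 3 left out, came to -0.086. The sign changed in 27, none of them *JUN*, *FOSL2*, *ATF3* or *BATF3*. All genes called numbered 794, and 1647 with DESeq2, 1801 with a minimum of 1 read in total, 1684 with a replicate block, 1193 with the block and the trend removed, and 8 to 1117 with a library left out (lowest without sh-*RREB1* replicate 3 at 8, sh-control replicate 2 at 9 and sh-*RREB1* replicate 1 at 25). With the trend removed and a library left out they were 627 to 881. Members called numbered 5, and 1 to 5 with a library left out: 1 without sh-control replicate 2, sh-*RREB1* replicate 1 or sh-*RREB1* replicate 3, and 2 without sh-control replicate 3 or sh-*RREB1* replicate 2. With the trend also removed they were 3 to 4. Targets called numbered 4 with DESeq2, with a minimum of 1 read and with the block, 2 with the trend removed, alone or with the block, and 0 to 2 with a library left out. Upstream regulators numbered 2 without TMM, 0 with the trend removed, alone or with the block, and 0 to 1 with a library left out. The bZIP partners numbered 5 with the block and the trend removed and 0 to 3 with a library left out, and immediate early genes 1 to 2. The cause was not tested. The main fit did not treat same-numbered libraries as pairs. Their deviations from the group means correlated at 0.501, 0.433 and -0.275 over 14332 genes, and sh-control replicate 3 correlated best with sh-*RREB1* replicate 2, at 0.561. These deviations keep the trend with GC content and come from 3 libraries a group, so they cannot decide whether libraries were paired. With 3 libraries a group, and under 50 reads a library for *JUNB*, *FOS*, *FOSB* and *FOSL1*, small changes in these genes were not detectable.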
